A study of Mus musculus with 80 samples.

Results

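The genes examined were 41 skeletal muscle genes, taken by symbol from a list that held the sarcomere proteins of slow and fast fibers and the calcium-handling and metabolic genes typical of the fiber. All 41 were found among the 32764 genes of the count tables, which covered brown fat (BAT), the inguinal depot of white fat (iWAT), liver and muscle. Each tissue had 20 RNA-seq libraries, 5 for each of 4 genotypes, 80 in all. The genotypes were wildtype (WT), FGF21 KO, UCP1 KO and the double knockout (dKO). UCP1 is the uncoupling protein of brown fat mitochondria, and FGF21 is a hormone that liver and fat release under metabolic stress. The dKO libraries are labelled UCP1/FGF12 double KO, and the study's methods use that name as well, but describe the breeding as a cross of UCP1 KO with FGF21 KO mice. The mice were males, homozygous for their genotype, on a C57BL/6J background and raised at 30 °C, and all groups, WT included, had been moved to room temperature and to high-fat diet for 3 weeks from an age of 10 to 12 weeks, with 2 to 3 h of food withdrawal before sampling. The labels name no tissue-specific deletion. The labels do not say which muscle was taken or which tissues came from the same mouse, and replicate numbers only name libraries within a tissue. Every knockout group was compared with the same 5 WT libraries, so that comparisons with WT are not independent of each other.

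Total counts lay between 28691377 and 50380696 per library. Fgf21 had 0 to 2 counts in the FGF21 KO libraries and 0 to 3 in the dKO libraries over all tissues. WT held 0 to 3 Fgf21 counts in muscle, 7 to 10 in BAT, 2 to 11 in iWAT and 51 to 107 in liver. Set against WT, these counts separate the labels clearly only in liver, and in muscle they overlap. Ucp1 was still counted where it had been deleted: in BAT the libraries labelled UCP1 KO held 24291 to 60779 Ucp1 counts and those labelled dKO 40641 to 90118, against 98548 to 216085 in WT. In iWAT the libraries labelled UCP1 KO held 3942 to 20264 counts and those labelled dKO 196 to 1189 with a median of 878, against 109 to 776 in WT with a median of 164, so that in iWAT the order of the counts ran against both labels. The counts of Ucp1 therefore do not check the labels of the iWAT libraries. Fgf21 had 23 to 385 counts in the iWAT libraries labelled UCP1 KO and 0 in those labelled dKO. The study also reports raised FGF21 expression in iWAT of UCP1 KO mice. Levels below are read counts scaled to a fixed library total (CPM) and corrected by the trimmed mean of M values (TMM) within a tissue.

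The sarcomere is the contractile unit of striated muscle, in which myosin heavy chains pull on actin filaments that carry tropomyosin and the troponin complex. Each fiber type is defined by the myosin heavy chain it uses: Myh7 in slow type I fibers, Myh2 in type IIa, Myh1 in type IIx and Myh4 in the fastest type IIb fibers, while Myh3 and Myh8 are the embryonic and perinatal chains of developing and regenerating muscle. Troponin, myosin light chain and calsequestrin genes come in slow and fast forms in the same way, so that the slow and fast genes together describe the fiber make-up of a sample. The list held 9 slow genes, 15 fast genes, 2 developmental genes and 15 genes common to all fibers.

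The genes lie on several chromosomes, but the fast and developmental heavy chains form a tandem cluster on chromosome 11 of GRCm38. In this cluster Myh3 (ENSMUSG00000020908.14) spans positions 67078300 to 67102291, Myh2 (ENSMUSG00000033196.17) 67171027 to 67197517, Myh1 (ENSMUSG00000056328.14) 67200052 to 67224575, Myh4 (ENSMUSG00000057003.12) 67238029 to 67260446 and Myh8 (ENSMUSG00000055775.16) 67277124 to 67308634, all on the plus strand. Myh7 (ENSMUSG00000053093.16) lies apart from them on the minus strand of chromosome 14, at 54970684 to 54994626. The 5 clustered genes are close copies of each other, so that a small part of the reads of the most abundant one, Myh4, could be counted for another, and low levels of the others beside high Myh4 are uncertain by that amount.

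To show what stands before the genes on which the results below turn, the 250 bases upstream of the RefSeq start in GRCm38.p6 are printed 5′ to 3′ on the gene's strand for a slow pair (Myh7 and Tnni1), a fast heavy chain (Myh4), both developmental heavy chains and the skeletal actin Acta1. They are Myh7 at chr14:54994627-54994876 on the minus strand, Tnni1 at chr1:135799171-135799420 on the plus strand, Myh4 at chr11:67237562-67237811, Myh3 at chr11:67078050-67078299 and Myh8 at chr11:67276874-67277123 on the plus strand, and Acta1 at chr8:123894776-123895025 on the minus strand. Capitals mark matches to the E-box CANNTG, which muscle regulatory factors such as MyoD bind, to the TATA box TATAAA on either strand, and to the CArG box and the MEF2 site.
Myh7: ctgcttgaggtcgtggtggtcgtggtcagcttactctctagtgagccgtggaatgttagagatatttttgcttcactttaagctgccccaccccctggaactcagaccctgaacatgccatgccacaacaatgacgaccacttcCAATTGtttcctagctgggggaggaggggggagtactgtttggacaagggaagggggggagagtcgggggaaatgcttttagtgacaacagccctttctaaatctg
Tnni1: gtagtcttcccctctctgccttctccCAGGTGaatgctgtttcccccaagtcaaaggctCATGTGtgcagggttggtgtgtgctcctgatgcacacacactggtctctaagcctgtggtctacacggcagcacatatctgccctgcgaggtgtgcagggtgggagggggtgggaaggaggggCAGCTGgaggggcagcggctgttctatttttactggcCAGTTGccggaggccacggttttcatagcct
Myh4: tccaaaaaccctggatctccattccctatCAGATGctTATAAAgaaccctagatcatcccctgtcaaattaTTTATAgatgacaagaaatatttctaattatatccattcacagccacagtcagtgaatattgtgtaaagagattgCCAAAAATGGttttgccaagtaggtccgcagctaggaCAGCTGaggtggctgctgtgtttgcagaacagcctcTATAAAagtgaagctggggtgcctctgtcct
Myh3: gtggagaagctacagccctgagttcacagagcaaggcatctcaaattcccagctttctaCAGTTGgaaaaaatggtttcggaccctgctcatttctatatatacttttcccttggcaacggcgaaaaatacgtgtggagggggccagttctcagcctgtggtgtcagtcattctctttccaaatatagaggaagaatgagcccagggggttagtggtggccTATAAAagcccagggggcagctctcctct
Myh8: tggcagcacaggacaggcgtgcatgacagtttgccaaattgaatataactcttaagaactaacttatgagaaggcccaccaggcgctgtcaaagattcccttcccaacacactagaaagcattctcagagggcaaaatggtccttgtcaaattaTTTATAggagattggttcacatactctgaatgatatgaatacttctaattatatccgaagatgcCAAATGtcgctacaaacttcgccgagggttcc
Acta1: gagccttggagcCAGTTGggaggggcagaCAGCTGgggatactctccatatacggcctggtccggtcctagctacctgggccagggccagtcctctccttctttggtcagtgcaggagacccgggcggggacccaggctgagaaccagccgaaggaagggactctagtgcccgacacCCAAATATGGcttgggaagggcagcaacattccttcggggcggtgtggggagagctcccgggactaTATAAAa

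The slow pair held E-boxes and no TATA box in these windows, with 1 E-box in Myh7 and 4 in Tnni1, whereas Myh4 held a TATA box 31 to 26 bases before the start and a CArG box 104 to 95 bases before it. Myh3 had its TATA box 29 to 24 bases before the start. Windows were found for 33 of the 41 genes (42 windows, as some genes have several starts), and none was found for Tnnt3, Tcap, Myot, Neb, Mylk2, Actn3, Tnni2 and Myoz1. An E-box stood in 37 of the 42 windows (88.1%) against 66.2% of all 32851 promoter windows of this length, and a TATA box stood in 8 (19.0%) against 12.4%. A CArG box stood in 5 (11.9%; those of Acta1, Ldb3, Myh4 and Myl3) against 1.47%, a MEF2 site in 2 (4.76%; Ttn and Myoz2) against 0.508%, and the M-CAT motif CATTCC, searched on both strands and not capitalized here, in 11 (26.2%) against 12.6%. These matches describe the letters of the windows and were not tested.

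In muscle, the 41 genes supplied 19.4 to 23.4% of all counts, and their summed level ran from 191594 to 241607 CPM with a median of 214084 CPM over the 20 libraries. The heavy chain of type IIb fibers made up most of the myosin. Per kilobase of transcript, Myh4 supplied 80.7 to 94.1% of the 4 adult heavy chains, Myh1 4.35 to 11.7%, Myh2 0.969 to 7.16% and Myh7 0.0158 to 0.521%. Myh4 had 40389, 45068, 57593, 57345 and 57885 CPM in the WT libraries and 43834 to 59297 CPM in the other 15, so that every genotype overlapped WT. Acta1, the actin of the thin filament in adult skeletal muscle, ran from 14469 to 22846 CPM, and the fast inhibitory troponin Tnni2 from 5987 to 7907 CPM.

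Slow-fiber genes varied far more between muscle libraries than fast or common ones. Myh7 had 217, 8.49, 15.4, 10.2 and 56.2 CPM in WT and 297, 173, 121, 32.5 and 33.4 CPM in FGF21 KO. It had 30.9, 12.4, 32.2, 80.2 and 94.4 CPM in UCP1 KO and 67.2, 128, 121, 77.8 and 27.4 CPM in dKO. The lowest and the second highest of the 20 values were both WT, and all genotypes overlapped. The slow inhibitory troponin Tnni1 was high and low in the same libraries: it had 28.5, 3.20, 3.09, 2.21 and 8.73 CPM in WT and 40.6, 24.0, 18.7, 6.34 and 6.14 CPM in FGF21 KO. The highest library exceeded the lowest 34.96-fold for Myh7 and 18.4-fold for Tnni1, and over the 9 slow genes the ratio ran from 3.24 to 34.96 with a median of 16.2. Over the 15 fast genes it ran from 1.28 to 5.998 with a median of 1.47, the highest being that of Myh2, and over the 15 common genes from 1.28 to 2.72 with a median of 1.42.

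The same 2 libraries stood at the top for most slow genes. In 7 of the 9 slow genes, which include the slow light chains Myl2 and Myl3 and the slow troponins Tnnt1 and Tnnc1, FGF21 KO 1 was highest and WT 1 second, while Myoz2, a protein of the Z-disc, and the calsequestrin Casq2 were highest in WT 1. Among the common genes the widest ranges belonged to the oxygen carrier myoglobin (Mb, 2.72-fold), Actn2 of the Z-disc (2.35-fold) and Mybpc1, a myosin-binding protein (2.20-fold), and all 3 were highest in WT 1. WT 1 also had the most Myh2, 3622 CPM against 2185, 1262, 923 and 604 CPM in the other WT libraries, and the least Myh4. As the labels name no muscle and no dissection, differences in the part of the muscle sampled cannot be told apart from differences between mice.

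**Figure D1:**
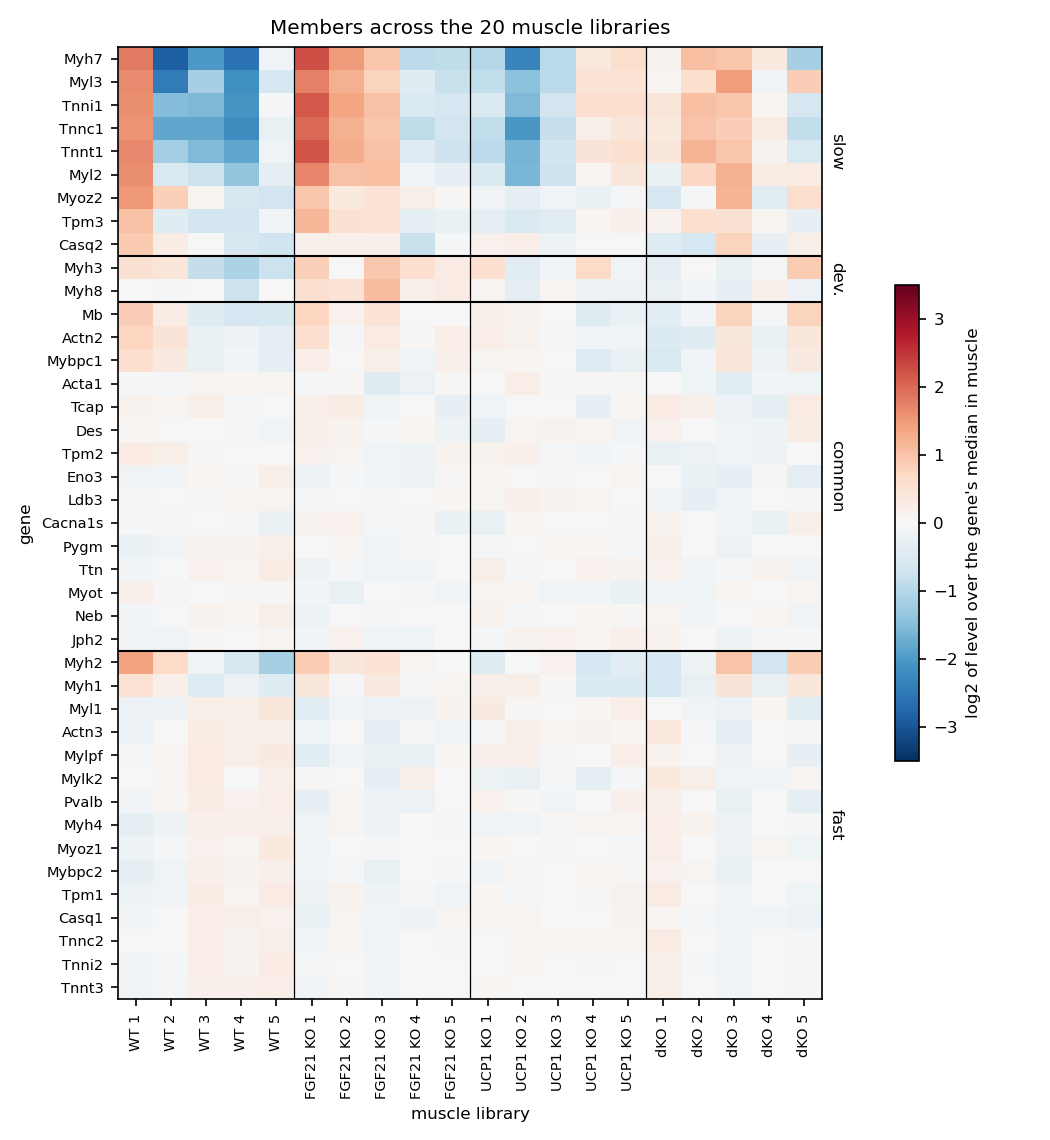
Levels of the 41 genes in the 20 muscle libraries, as log2 of CPM over the gene's median in muscle, with genes grouped as slow, developmental, common and fast and libraries grouped by genotype. Most slow genes lie above their median in FGF21 KO 1 and WT 1 and below it in WT 2, WT 3 and WT 4, whereas the fast and common genes change less, apart from Myh2 among the fast and Mb, Actn2 and Mybpc1 among the common genes.

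In the comparisons given next, no gene of the list passed edgeR's quasi-likelihood test at a Benjamini-Hochberg adjusted p of 0.01 in muscle, and few genes did in the whole table. UCP1 KO against FGF21 KO, which differ in both targeted genes, is not among them. In UCP1 KO against WT 0 of 41 were called (0.0265% of all 15114 genes tested), in FGF21 KO against WT 0 (0.00662%), in dKO against WT 0 (0.0529%), in UCP1 KO against dKO 0 (0.0% of genes) and in dKO against FGF21 KO 0 (0.0595%). The interaction, which tests whether loss of UCP1 acted differently with and without FGF21, gave 0 (0.0%), and the test over all 4 genotypes gave 0 (0.086%). At an unadjusted p under 0.05 the same comparisons gave 1 (9.8% of genes), 9 (12.9%), 7 (12.2%), 5 (11.7%), 2 (7.96%), 3 (7.48%) and 7 (16.3%) of the 41 genes. DESeq2 called 1 gene in FGF21 KO against WT (Myh8, beside 1.27% of genes), 1 in UCP1 KO against dKO (Ldb3, beside 0.132%) and 2 over all 4 genotypes (beside 2.4%), and 0 in the other muscle comparisons.

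The median log2 change of the 41 genes was −0.07 in UCP1 KO against WT, −0.05 in FGF21 KO against WT and −0.07 in dKO against WT, beside 0.00 over all genes in each. Slow genes had a median of 0.92 in FGF21 KO, 0.46 in dKO and −0.25 in UCP1 KO against WT, but their spread was wide. For Myh7 in FGF21 KO against WT the log2 change was 1.10 with a standard error of 0.80 (adjusted p = 0.617, edgeR), and an exact two-sided permutation test over the 10 libraries gave p = 0.143. Without WT 1 this change was 2.53 (adjusted p = 0.124, edgeR) and without FGF21 KO 1 it was 0.55 (adjusted p = 0.862, edgeR). Without WT 1 the slow medians were 2.08 in FGF21 KO, 1.58 in dKO and 0.81 in UCP1 KO, so that the direction turned in UCP1 KO, and without FGF21 KO 1 that of FGF21 KO was 0.52. Fast genes had medians of −0.15, −0.08 and −0.05 in FGF21 KO, dKO and UCP1 KO. The regulatory light chain of fast fibers, Mylpf, was among those below 0 in FGF21 KO against WT, at −0.36 ± 0.09 (SE, adjusted p = 0.0677 by edgeR).

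The perinatal heavy chain Myh8 separated FGF21 KO from WT in muscle without passing the threshold of 0.01. It had 3.01, 2.90, 2.98, 1.79 and 3.03 CPM in WT and 4.45, 4.20, 6.36, 3.40 and 3.68 CPM in FGF21 KO, so that all 5 FGF21 KO libraries lay above all 5 WT libraries, as 1.65% of all genes did in this direction. The difference was 0.69 ± 0.17 on the log2 scale (SE, n = 5 and 5), with an adjusted p of 0.0466 by edgeR, an adjusted p of 0.0061 by DESeq2 and an exact permutation p of 0.00794, the smallest that 5 against 5 libraries can give. In UCP1 KO Myh8 ran from 2.36 to 3.22 CPM and in dKO from 2.47 to 3.41 CPM, both overlapping WT, and for dKO against FGF21 KO the log2 difference was −0.68 with an adjusted p of 0.218 by edgeR (exact permutation p = 0.0159). Myh4, the far more abundant neighbour and close copy of Myh8, had a log2 difference of −0.08 ± 0.11 (SE) in FGF21 KO against WT. The embryonic chain Myh3 ran from 0.703 to 2.90 CPM in muscle.

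Of the further muscle genes chosen beside the list, 0 of 26 genes of muscle structure and contraction and 0 of 19 muscle regulators were called by edgeR in muscle between any of the genotypes compared. At an unadjusted p under 0.05 the comparisons between genotypes gave 1 to 5 of the 26 and 1 to 3 of the 19 (7.48 to 15.2% of genes), and DESeq2 called 0 of either, with 1 of the 26 over all 4 genotypes.

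In the other tissues, the summed level of the 41 genes is used as a summary of the list. It is given in CPM and as a percent of the muscle median of 214084 CPM, called the muscle-equivalent share. TMM factors were set within each tissue, so that this share compares levels across separately scaled tables. In libraries with a low sum a few genes supplied much of it: Tpm1, Tpm3, Des and Myl1, chosen after their values were seen, made up 22.4 to 80.7% of the sum in the 16 BAT libraries with less muscle signal, 25.9 to 80.5% in 17 such iWAT libraries and 32.1 to 65.9% in liver, against 11.1 to 13.2% in muscle. In bulk tissue, a few muscle fibers in the sample and low expression of the same genes by the tissue's own cells cannot be told apart from the sum alone, nor can fewer cells of a type be told apart from less RNA per cell.

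**Figure D2:**
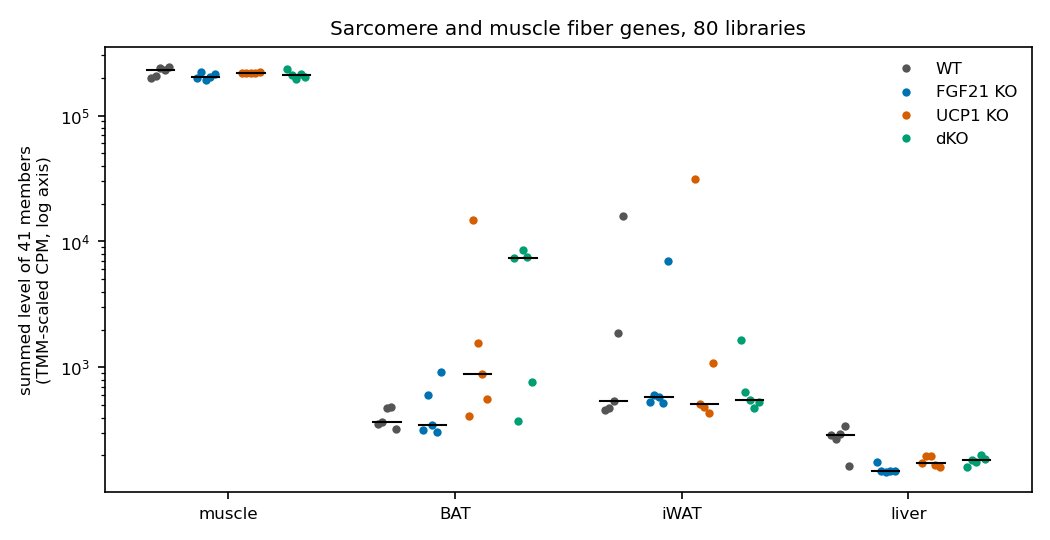
Summed level of the 41 genes in CPM (log axis) in each library of the 4 tissues, by genotype, with 1 point for each library and a line at the median of 5. Muscle libraries lie near 214084 CPM, 4 BAT libraries and 3 iWAT libraries lie above the rest of their tissue, and 4 of 5 WT livers lie above all knockout livers.

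In BAT, 4 of the 20 libraries carried muscle genes at 3.43 to 6.96% of the muscle level, 1 of them UCP1 KO and 3 dKO. With TMM over all 80 libraries these 4 shares were 2.74 to 5.58%. The summed level was 356, 371, 475, 483 and 326 CPM in WT and 321, 609, 347, 310 and 926 CPM in FGF21 KO. It was 408, 14899, 1571, 879 and 562 CPM in UCP1 KO and 7349, 376, 8586, 7498 and 763 CPM in dKO. UCP1 KO 2, dKO 1, dKO 3 and dKO 4 were thus far above the others, which held 0.145 to 0.734% of the muscle level, and of the other 6 UCP1 KO and dKO libraries 5 lay within the range of WT and FGF21 KO and UCP1 KO 3 above it. As a mean over 5 libraries the share was 0.188% ± 0.0337 (SD) in WT, 0.235% ± 0.125 in FGF21 KO, 1.71% ± 2.94 in UCP1 KO and 2.30% ± 1.87 in dKO.

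Between genotypes, every call of the list against WT in BAT was higher, in UCP1 KO and in dKO. In dKO against WT 31 of 41 were called, all higher, where 21.1% of all 15729 genes were called and 11.1% were called higher. In UCP1 KO against WT 10 were called, all higher (Acta1, Actn2, Actn3, Cacna1s, Casq1, Mybpc2, Myh1, Myh4, Tcap and Ttn), where 25.2% of all genes were called and 13.8% called higher, so that the share of the list called was near that of all genes called. In dKO against FGF21 KO 9 were called higher (Actn2, Myh3, Myh7, Myh8, Myl2, Myoz2, Tnnc1, Tnni1 and Tnnt1), where 13.5% of all genes were called and 6.74% called higher, while DESeq2 called 36 of 41 (19.5% of genes). Myh3 and Myh8 could be tested only because of their counts in dKO. Their calls in dKO against WT, in dKO against FGF21 KO and over all 4 genotypes are included in the counts but follow from the filter. Myl2, Myoz2 and Tnni1 reached the 75 counts of the filter only with the UCP1 KO and dKO libraries, so that their calls are a description as well. edgeR's other calls against FGF21 KO were Actn2 and the slow genes Myh7, Tnnc1 and Tnnt1. Among the FGF21 KO libraries, FGF21 KO 5 held 164 CPM of Myh4 and 64.3 CPM of Acta1 but 0.0938 CPM of Myh7. Fast genes were thus compared with a higher and wider baseline, and the part of this in the calls was not tested. The median log2 change was 5.04 in dKO against WT, 4.54 in UCP1 KO against WT and 4.11 in dKO against FGF21 KO, beside 0.01, 0.01 and 0.00 over all genes. Slow genes had the higher medians, 6.26, 5.23 and 6.41, against 5.02, 4.66 and 4.04 for fast genes. The slow medians rest in part on Myl2, Myoz2 and Tnni1, which had 0 to 18 counts in WT and 0 to 19 in FGF21 KO, so that they are rough.

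FGF21 KO against WT gave 0 of 41 calls (0.0% of all genes), also 0 at an unadjusted p under 0.05 (8.55% of genes) and 0 by DESeq2, with a median log2 change of 0.61. UCP1 KO against dKO gave 0 (0.0636%), with 2 at an unadjusted p under 0.05 (12.9%) and 0 by DESeq2. The interaction gave 0 (0.0%), with 0 at an unadjusted p under 0.05 (5.37%) and 0 by DESeq2, so that a difference between both effects of UCP1 loss was not shown. Over all 4 genotypes 33 of 41 were called (29.7% of genes). DESeq2 called 34 genes in UCP1 KO against WT (30.3% of genes) and 36 in dKO against WT (26.9%). In edgeR's fit, leaving out any 1 of the WT libraries, or UCP1 KO 2, left 0 calls in UCP1 KO against WT, where 19.6 to 22.5% of all genes were called, and leaving out any 1 of the WT libraries left 2 in dKO against WT (14.96 to 16.4%).

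Most calls were lost without the 4 libraries that stood apart. With them left out, and with 2 dKO libraries left, edgeR called 2 of 39 genes in UCP1 KO against WT (25% of genes), 0 of 39 in dKO against WT (17.4%) and 2 of 39 over all 4 genotypes (28.5%). At an unadjusted p under 0.05 there were 27 of 39 in UCP1 KO against WT (49.2% of genes) and 3 of 39 in dKO against WT (43.6%). The 4 libraries were left out because of these same levels, and DESeq2 was not run without them. The genes called in UCP1 KO were Actn2, which kept its call, and the intermediate filament gene desmin (Des), which was not called with all libraries, with log2 differences of 1.90 (adjusted p = 0.000285, edgeR) and 1.16 (adjusted p = 0.00433, edgeR) in UCP1 KO against WT. Des was highest in UCP1 KO 5, at 271 CPM, a library in which adipocyte markers summed to 4333 CPM, beside 6402 CPM in UCP1 KO 4 and 9173 to 11995 CPM in the other 18, and the part of this in the result was not tested. The median log2 change of the tested genes fell to 2.03 in UCP1 KO and to 1.42 in dKO. Of the 5 comparisons between genotypes, 4 shifted by over 0.1 over all genes when library totals replaced TMM (by 0.299 on the log2 scale in UCP1 KO against WT, 0.195 in dKO against WT, 0.105 in UCP1 KO against dKO and 0.226 in dKO against FGF21 KO), and the changes above are relative to TMM.

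Actn2, the alpha-actinin of the Z-disc in all fibers, gave the lowest adjusted p in BAT. It had 2.10, 1.97, 2.17, 1.89 and 1.77 CPM in WT and 1.65, 3.32, 2.32, 1.56 and 4.22 CPM in FGF21 KO. It had 7.80, 107, 10.1, 8.37 and 3.14 CPM in UCP1 KO and 79.1, 3.87, 70.8, 71.2 and 4.64 CPM in dKO. All 10 UCP1 KO and dKO libraries were above all 5 WT libraries, although UCP1 KO 5 and dKO 2 were below the highest FGF21 KO library. The log2 change was 4.54 ± 0.99 (SE) in dKO against WT (adjusted p = 0.0019 by edgeR, exact permutation p = 0.00794) and 3.79 ± 0.97 in UCP1 KO against WT (adjusted p = 0.00461, edgeR).

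Myh2 of type IIa fibers had 0.669, 0.807, 1.22, 1.59 and 0.405 CPM in WT, 0.483, 199, 10.3, 4.24 and 0.480 CPM in UCP1 KO and 197, 0.968, 115, 140 and 8.29 CPM in dKO. The genotypes overlapped, since dKO 2 lay within WT. Its log2 change in dKO against WT was 6.62 ± 1.67 (SE, adjusted p = 0.00516 by edgeR, exact permutation p = 0.0238). Tnnc1, the calcium-binding troponin of slow fibers, had 0.274, 0.632, 0.524, 0.878 and 0.203 CPM in WT and 38.8, 0.941, 47.5, 11.5 and 1.73 CPM in dKO, all above WT, with a log2 change of 5.33 ± 1.37 (SE, adjusted p = 0.00585 by edgeR, exact permutation p = 0.00794).

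Myh4 had 14.2, 15.8, 38.8, 36.3 and 9.26 CPM in WT and 9.93, 63.7, 13.6, 13.2 and 164 CPM in FGF21 KO. It had 22.9, 2722, 276, 128 and 20.4 CPM in UCP1 KO and 1121, 37.4, 1573, 1132 and 106 CPM in dKO. Here too UCP1 KO 2 and dKO 1, 3 and 4 were highest, and of the remaining 6 libraries of these genotypes all but UCP1 KO 3 lay within the range of WT and FGF21 KO. Acta1 was highest in the same 4 libraries, with 1815 CPM in UCP1 KO 2 and 857, 14.5, 905, 739 and 60.8 CPM in dKO, against 3.47 to 22.6 CPM in WT. Tnni2 and Myh1 were likewise highest in these 4 libraries, at 166 to 407 CPM and 253 to 605 CPM.

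The muscle genes in these BAT libraries were not a scaled-down copy of the sampled muscle: slow genes were high relative to fast ones. Myh7 had 303 CPM in UCP1 KO 2 and 224, 253 and 66.6 CPM in dKO 1, 3 and 4, against 0 to 12.7 CPM in the other 16 BAT libraries, and the value in UCP1 KO 2 was above all 20 muscle libraries. Tnni1 had 65.7, 49.0, 56.0 and 21.1 CPM there, and was above all 20 muscle libraries in UCP1 KO 2, dKO 1 and dKO 3. As a percent of the gene's median in muscle, slow genes had a median of 303% in UCP1 KO 2, 257% in dKO 1, 261% in dKO 3 and 92.6% in dKO 4. Fast genes had 5.66, 2.61, 3.11 and 2.75% in the same order, and common genes 9.27, 4.54, 5.11 and 4.07%. Per kilobase, Myh7 made up 7.69, 12.2, 10.9 and 3.47% of the adult heavy chains in these 4 libraries, where muscle had at most 0.521%, and Myh4 made up 71.4, 62.9, 70.5 and 61.1%.

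**Figure D3:**
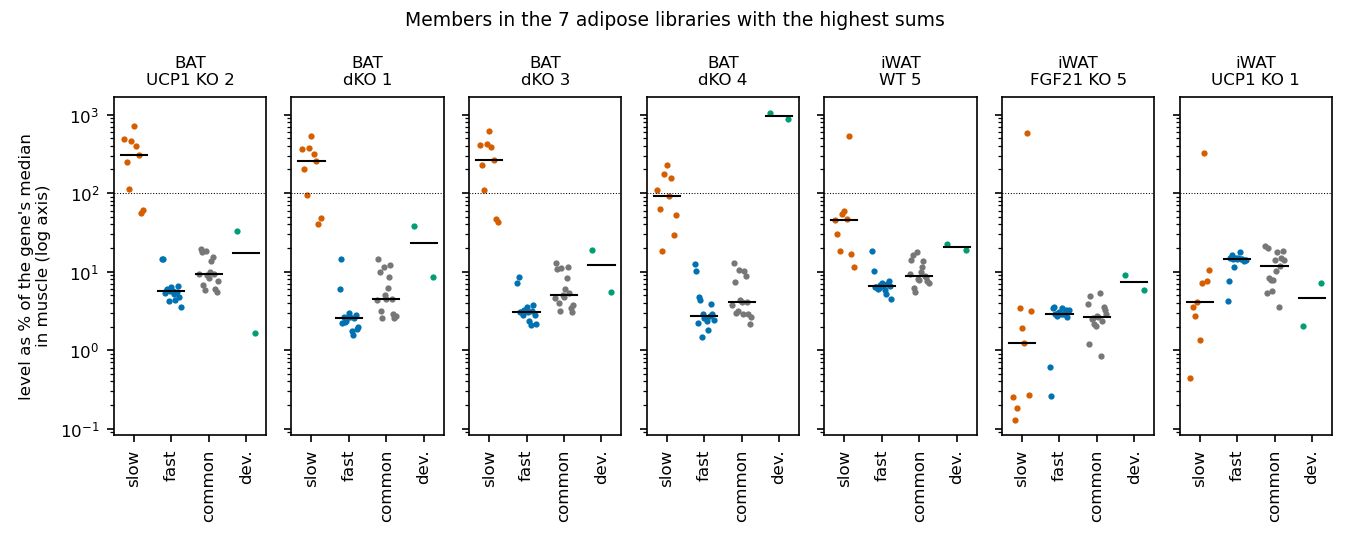
Level of each gene as a percent of its muscle median (log axis, dotted line at 100%) in the 4 BAT and 3 iWAT libraries that stand apart, with genes grouped as slow, developmental, common and fast and a line at each group's median. The slow median lies near or above the dotted line in the BAT libraries, with Myoz2 and Casq2 below it in all 4, and in iWAT only WT 5 has slow genes well above its fast ones.

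dKO 4 differed from the other 3 in its developmental genes. Myh3 had 0, 1, 2, 0 and 0 counts in WT, 0, 1, 0, 0 and 0 in FGF21 KO, 0, 20, 0, 3 and 1 in UCP1 KO and 25, 1, 12, 619 and 4 in dKO. Myh8 had 0, 0, 1, 0 and 0 counts in WT, 1, 0, 0, 0 and 1 in FGF21 KO, 0, 2, 1, 0 and 0 in UCP1 KO and 11, 1, 7, 1010 and 1 in dKO. Both genes were at or under 3 counts in every WT and FGF21 KO library, and no fold is given against such levels. At 15.9 CPM of Myh3 and 26.0 CPM of Myh8, dKO 4 exceeded all 20 muscle libraries in both. Both genes passed the filter on low counts in BAT only through the dKO libraries, so that their calls are given as a description and no p is given.

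**Figure D4:**
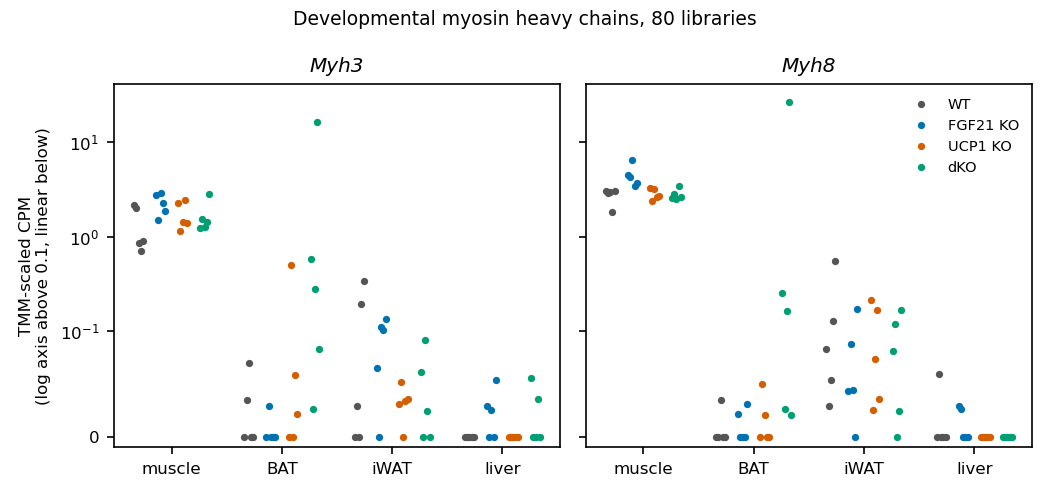
CPM of the developmental heavy chains Myh3 and Myh8 in all 80 libraries by tissue and genotype (log axis above 0.1 CPM, linear below). The BAT library dKO 4 holds the highest value of both genes, 15.9 and 26.0 CPM.

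Some further genes that developing or regenerating muscle uses were also highest in dKO 4, and others were not. The regulator myogenin (Myog) had 4.53 CPM there against 0.715 to 0.800 in the other 3 libraries, the fetal acetylcholine receptor subunit Chrng 0.772 CPM, Tnnt2 4.12 CPM and Actc1 18.2 CPM against at most 5.52 CPM elsewhere in BAT. Myod1, a regulator of muscle precursors, had 0.875 CPM in dKO 4 and 1.25 CPM in UCP1 KO 2, and the satellite cell gene Pax7 had 0.0515 and 0.2499 CPM. Myf6, a regulator of mature fibers, had 9.75 CPM in dKO 4. Type IIx Myh1 made up 28.0% of the adult heavy chains of dKO 4 per kilobase. These genes were named for dKO 4 after its values were seen.

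Of the further lists in BAT, 21 of 26 genes of muscle structure and contraction were called higher in dKO against WT (11.1% of all genes), 10 in UCP1 KO against WT (13.8%) and 5 in dKO against FGF21 KO (6.74%), with median log2 changes of 5.24, 4.80 and 4.41 and 0 called lower. Of 19 muscle regulators 14 were tested, of which 4 were called higher and 1 lower in dKO against WT (21.1% of all genes called), and 3 higher and 1 lower in UCP1 KO against WT (25.2%). Creatine kinase (Ckm) reached 964 CPM in UCP1 KO 2 and 319 to 478 CPM in the 3 dKO libraries. The 8 markers of heart muscle summed to 15.5 CPM in dKO 4 and to 2.45 to 8.25 CPM in the other 19 BAT libraries. Of these 8, Ryr2 had 2.17 to 11.1 CPM and Tnnt2, which developing skeletal muscle also uses, at most 4.12 CPM, Myl7 and Nppb were at 0 in all libraries, and Myh6, Tnni3, Mybpc3 and Nppa were at most 0.461 CPM. Their part in the result was not tested. Brown adipocyte markers summed to 2916 CPM in UCP1 KO 2 and to 3246 to 3769 CPM in dKO 1, 3 and 4, within the range of 2242 to 4545 CPM of the other libraries. Hepatocyte markers, of which 5 of 6 were called higher in dKO against WT (11.1% of all genes), summed to 63.5 to 114 CPM in these 4 libraries and to 22.9 to 285 CPM in the other BAT libraries.

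Outside the 4 libraries, 22 of the 41 genes had a BAT median under 0.1% of their muscle median, and 6 had 1% or more (Myl3, Tnnt1, Tnnc1, Tpm3, Des and Casq2). Tpm3, a tropomyosin that cells other than muscle also use, had 58.0 to 77.1 CPM in these 16 libraries and stood above its own muscle median. Tpm3 and Des were the 2 genes of the list that did not lie above all other BAT libraries in each of the 4 that stood apart.

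In iWAT, 3 libraries of 3 genotypes carried most of the muscle genes. The summed level was 459, 480, 545, 1888 and 15840 CPM in WT and 527, 607, 578, 519 and 6972 CPM in FGF21 KO. It was 31118, 510, 484, 437 and 1082 CPM in the libraries labelled UCP1 KO and 1643, 640, 551, 474 and 527 CPM in dKO. WT 5, FGF21 KO 5 and UCP1 KO 1 had 7.40, 3.26 and 14.5% of the muscle level, and the other 17 libraries 0.204 to 0.882%. With TMM over all 80 libraries the same shares were 3.81, 1.70 and 7.74%, and 0.110 to 0.449% in the other 17. Mean shares were 1.79% in WT, 0.860% in FGF21 KO, 3.14% in UCP1 KO and 0.358% in dKO, and in the first 3 the mean rests on 1 library each, without which it was 0.394, 0.261 and 0.294%. In this tissue UCP1 KO and dKO name the labels, since Ucp1 counts ran against both, while Fgf21 counts were 23 to 385 in UCP1 KO and 0 in dKO.

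Relative to muscle, fast genes were higher than slow ones in FGF21 KO 5 and UCP1 KO 1, and slow genes were higher than fast ones in WT 5. Myh4 had 3201 CPM in WT 5, 1760 CPM in FGF21 KO 5 and 7679 CPM in UCP1 KO 1, and per kilobase it made up 77.7, 98.4 and 96.5% of the adult heavy chains. Myh7 had 27.9 CPM in WT 5 but 0.154 CPM in FGF21 KO 5 and 0.277 CPM in UCP1 KO 1, which is 0.653, 0.00834 and 0.00336% of the heavy chains. Slow genes had a median of 45.1% of their muscle level in WT 5, 1.25% in FGF21 KO 5 and 4.07% in UCP1 KO 1, and fast genes 6.57, 2.88 and 14.5%. Tnni1 had 5.45 CPM in WT 5 and at most 0.400 CPM in all other iWAT libraries. Of the 41 genes, 28 were above all other iWAT libraries in each of these 3 libraries.

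In WT 4, which did not stand apart by the sum, type IIx Myh1 reached 134 CPM beside 251 CPM of Myh4, a per-kilobase share of 34.4%. Tpm3 had 152 to 292 CPM over all 20 iWAT libraries, above the 31.4 to 110 CPM of muscle. Markers of lymph node, which lies in this fat depot, summed to 845 to 1630 CPM in 9 iWAT libraries and to 4.95 to 31.1 CPM in the other 11. The 9 were WT 4 and 5, FGF21 KO 1, 3, 4 and 5, UCP1 KO 2, and dKO 1 and 3. They were thus unevenly spread over the genotypes. Some genes of the list differed with these markers. In FGF21 KO 1, 3 and 4, UCP1 KO 2 and dKO 3, Actn2 had 65 to 86 counts, Eno3 1277 to 1688 and Myl1 749 to 1595. In the low-marker libraries other than UCP1 KO 1 they had 3 to 42, 338 to 661 and 1926 to 2899 counts. The part of lymph node in the sums was not tested. Brown adipocyte markers summed to 347 to 2212 CPM in the libraries labelled UCP1 KO against 11.1 to 120 CPM in the others.

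In iWAT edgeR called no gene of the list: 0 of 40 genes passed in UCP1 KO against WT (0.61% of all 17380 genes), FGF21 KO against WT (0.00575%), dKO against WT (0.0173%), UCP1 KO against dKO (0.466%), dKO against FGF21 KO (0.0115%), the interaction (0.0%) and over all 4 genotypes (1.74%). In that order, 3 (14.7% of genes), 10 (17.4%), 12 (5.9%), 9 (14.2%), 0 (8.62%), 1 (9.98%) and 10 (22.5%) had an unadjusted p under 0.05. DESeq2 called Myh1 over all 4 genotypes (beside 7.27% of genes) and 0 genes in the other comparisons. Over all 4 genotypes and without the 3 libraries, 0 of 36 genes were called (0.673% of genes), 5 had an unadjusted p under 0.05 (20.1%), and DESeq2 was not run without them. Median log2 changes were 0.40 in UCP1 KO, −1.30 in FGF21 KO and −3.17 in dKO against WT, all set against a WT mean that WT 4 and WT 5 raise. Without the 3 libraries they were −0.57, −1.29 and −0.18 over the 36 genes tested, so that the direction turned in UCP1 KO. Myh3 was not tested in iWAT, and 0 of 26 further genes of muscle structure were called by edgeR or DESeq2, with 1 to 12 of them at an unadjusted p under 0.05 (12 in UCP1 KO against dKO, beside 14.2% of genes). When library totals replaced TMM, the median of all iWAT genes shifted by −0.153 on the log2 scale in UCP1 KO against WT, 0.194 in FGF21 KO against WT, −0.184 in UCP1 KO against dKO and −0.172 in dKO against FGF21 KO, and the changes above are relative to TMM.

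In liver, muscle genes were at trace levels, and their sum was lower in all 15 knockout libraries than in 4 of the 5 WT libraries. The summed level was 289, 270, 298, 344 and 165 CPM in WT, 176, 151, 147, 151 and 150 CPM in FGF21 KO, 176, 199, 197, 168 and 163 CPM in UCP1 KO and 162, 186, 178, 201 and 187 CPM in dKO. WT 5 lay within the knockout range, and the other 4 WT libraries lay above all 15 knockout libraries. The muscle-equivalent share was 0.128% ± 0.0310 (SD, n = 5) in WT, 0.0724% ± 0.00563 in FGF21 KO, 0.0843% ± 0.00770 in UCP1 KO and 0.0853% ± 0.00670 in dKO.

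Of the 33 genes tested in liver, 17 were called in FGF21 KO against WT, all lower, where 0.229% of all 14407 genes were called and 0.215% called lower. They were the fast genes Casq1, Mybpc2, Myh4, Myl1, Mylk2, Pvalb, Tnnc2, Tnni2 and Tnnt3 and the common genes Acta1, Cacna1s, Ldb3, Mb, Mybpc1, Myot, Pygm and Ttn. UCP1 KO against WT gave 1 call, Mb (0.0694% of genes called, 0.0416% called lower). dKO against WT gave 0 (0.0416%), although 28 of 33 had an unadjusted p under 0.05 (12.1% of genes) and DESeq2 called 22 (0.639%). In UCP1 KO against WT DESeq2 called 20 of the 33 (0.777% of genes), and in FGF21 KO against WT 25 (0.382%). The median log2 changes were −1.996 in FGF21 KO, −1.60 in UCP1 KO and −1.64 in dKO, beside a median within 0.01 of 0 over all genes.

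Neither UCP1 KO nor FGF21 KO was shown to differ from dKO in liver. edgeR called 0 of 33 genes in UCP1 KO against dKO (0.00694% of genes) and 0 in dKO against FGF21 KO (0.00694% as well), with 2 (8.25%) and 3 (6.75%) at an unadjusted p under 0.05 and 0 by DESeq2 in both. In the interaction 0 were called by edgeR (0.0% of genes), 28 had an unadjusted p under 0.05 (5.16%), and DESeq2 called 5 (0.0625%). Over all 4 genotypes 17 were called (0.34% of genes). Leaving out WT 5 raised the calls against WT to 25 in FGF21 KO (0.333% of all genes), 20 in UCP1 KO (0.319%) and 20 in dKO (0.243%), and leaving out FGF21 KO 3 or FGF21 KO 4 left 0 in FGF21 KO (0.00695% and 0.0278%). With only the 10 libraries compared in the fit, edgeR called 0 in FGF21 KO against WT, with 29 at an unadjusted p under 0.05 (9.54% of genes).

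Acta1 had 12.2, 13.4, 16.5, 17.8 and 5.10 CPM in WT, 4.67, 2.60, 2.62, 2.57 and 3.41 CPM in FGF21 KO, 4.63, 5.06, 4.82, 3.78 and 2.87 CPM in UCP1 KO and 2.53, 2.98, 4.42, 5.88 and 4.20 CPM in dKO. All FGF21 KO and UCP1 KO libraries were below all WT libraries, and dKO 4 was above WT 5. The log2 change in FGF21 KO against WT was −2.04 ± 0.28 (SE, adjusted p = 0.00193 by edgeR, exact permutation p = 0.00794). Mb had 1.69, 1.64, 1.91, 2.95 and 0.707 CPM in WT and 0.251 to 0.854 CPM over the 15 knockout libraries, and changed by −2.20 ± 0.32 in FGF21 KO (adjusted p = 0.00226 by edgeR) and by −2.19 ± 0.32 in UCP1 KO (adjusted p = 0.00414 by edgeR, exact permutation p = 0.00794 in both).

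Some called fast genes followed the same order. The fast troponin T Tnnt3 had 11.2, 11.7, 12.4, 16.7 and 3.72 CPM in WT, the calsequestrin Casq1 2.95, 2.68, 2.90, 3.19 and 1.11 CPM and the fast troponin C Tnnc2 5.10, 5.27, 5.44, 7.49 and 1.97 CPM. In each, WT 5 was the lowest WT library and lay below the highest FGF21 KO library. Their log2 changes in FGF21 KO against WT were −2.16 ± 0.33, −1.92 ± 0.29 and −2.10 ± 0.32 (SE, adjusted p = 0.00354, 0.00327 and 0.00352 by edgeR, exact permutation p = 0.0159 each). Myh4, the most abundant heavy chain of the muscle libraries, had 39.6, 38.6, 45.0, 59.2 and 13.1 CPM in WT livers and 6.31 to 18.4 CPM in knockout livers. Tpm1, a tropomyosin listed with the fast genes, had means of 37.0 CPM in WT, 28.1 CPM in FGF21 KO, 37.8 CPM in UCP1 KO and 33.2 CPM in dKO, and UCP1 KO lay within the WT range. WT 4 was the highest of the 20 livers for 27 of the 41 genes.

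**Figure D5:**
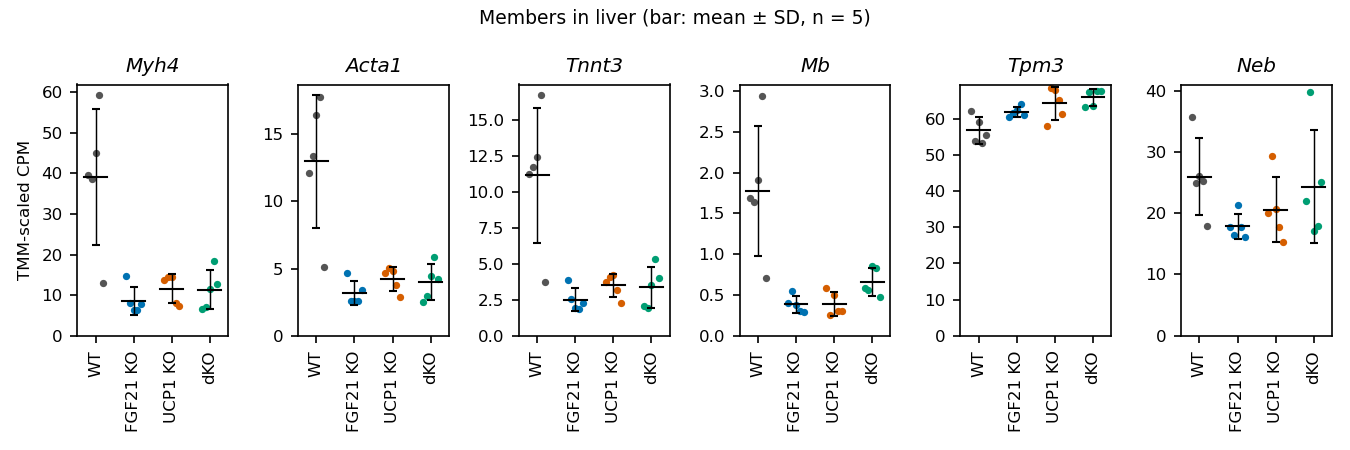
CPM of Myh4, Acta1, Tnnt3, Mb, Tpm3 and Neb in the 20 liver libraries by genotype, with 1 point for each library and the mean ± SD of 5. For Myh4, Acta1, Tnnt3 and Mb, 4 WT libraries lie above the knockouts and WT 5 lies among or near them, whereas Tpm3 is not lower in the knockouts and Neb overlaps widely.

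Tpm3 was not lower in the knockouts, with means of 56.8 CPM in WT, 61.9 CPM in FGF21 KO, 64.3 CPM in UCP1 KO and 65.9 CPM in dKO. The giant thin-filament protein nebulin (Neb) had means of 26.0, 17.9, 20.6 and 24.4 CPM in the same order and overlapped between WT and each knockout, with its highest value, 39.8 CPM, in dKO 2. Neither was called against WT. The slow and developmental genes Myh7, Myl2, Myl3, Tnni1, Myoz2, Casq2, Myh3 and Myh8 were too low to be tested. Of the slow genes only Tnnt1 (0.215 to 1.02 CPM), Tnnc1 (0.133 to 0.617 CPM) and Tpm3 were tested, and none was called against WT. Of 26 further genes of muscle structure and contraction 22 were tested, of which 8 were called lower in FGF21 KO (0.215% of all genes), 0 in UCP1 KO (0.0416%) and 1 (Ckm) in dKO (0.0416% called in either direction), with median log2 changes of −1.69, −1.46 and −1.45, and 0 of the 9 muscle regulators tested were called. DESeq2 called 11, 8 and 6 of the 22 and 0 of the 9 in the same comparisons (0.382%, 0.777% and 0.639% of genes). At an unadjusted p under 0.05 there were 18, 16 and 17 of the 22 and 3, 3 and 4 of the 9 regulators (7.54%, 10.2% and 12.1% of genes). Hepatocyte markers summed to 90986 to 96999 CPM in WT and 66452 to 105684 CPM in the knockouts. Whether WT livers carried muscle tissue or another source of these RNAs was not tested.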

How the data were processed

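RNA-seq was done on BAT, iWAT, liver and muscle of 4 genotypes, 5 libraries each. The authors prepared stranded TruSeq poly(A) libraries, mapped them with STAR in 2 passes (build mm10, GRCm38) and deposited gene counts per library made with HTSeq-count against the UCSC known gene annotation. The strand setting of the counting is not given in the sources used here, so that overlapping genes on opposite strands cannot be told apart. No values other than counts were used. The labels do not say whether libraries of a group come from separate mice in each tissue; p-values measure the spread between these libraries. Of 760 pairs of libraries 0 held identical counts.

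Counts were fitted per tissue with edgeR 4.0.16 (R 4.3.3, limma 3.58.1) by the quasi-likelihood test with TMM factors, all 20 libraries of the tissue and 1 mean per genotype, over genes with more than 15 counts in 1 library, more than 75 counts in all and 0 counts in at most 10 libraries. Benjamini-Hochberg adjustment covered all genes tested in the tissue, and genes under an adjusted p of 0.01, as in the study's heat maps, were called. Single genes were also tested by exact two-sided permutation of log2 CPM (prior count 2) over 5 against 5 libraries (252 splits, numpy 2.4.6). DESeq2 1.42.0, which the study used, was an alternative. Levels between genes are compared per kilobase of the GENCODE transcript with the longest coding sequence only. A library was said to stand apart where its summed level was over 1% of the muscle median. One nameless line of each table was left out.

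The genes, roles and further lists were chosen with earlier results of these data known. Myh7, Myh2, Myh1, Myh4, Myh3, Myh8, Tnni1, Tnni2 and Acta1 were set to be shown, as were the called genes with the lowest adjusted p in each tissue, at most 5. Their values are given per library or as ranges, and not for every gene, group and tissue. Other genes named with values were chosen after their values were seen. The alternatives were DESeq2, other scaling, no low-count filter, a threshold of 0.05, only the 2 genotypes compared and leaving out each library. Fits were tested on simulated data. Reads carry no molecular identifiers, so counting error is a lower bound on the uncertainty of low levels.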

Additional observations from a re-analysis of the deposited data

Results flagged for a closer look

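In 56 groups of 5 libraries, the highest or lowest library was compared with the nearest of the others by Dixon's ratio (critical value 0.71), and 13 stood out. Chance alone marks about 1 in 20 groups. The causes were not tested.

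In muscle, WT 1 stood out in its slow fiber genes. Myh7 supplied 0.418% of its adult heavy chains per kilobase against 0.0158 to 0.0881% in the other WT libraries, at a level of 217 CPM against 8.49 to 56.2 CPM, and Tnni1 had 28.5 CPM against 2.21 to 8.73 CPM. Myh3 was high in dKO 5, at 2.78 CPM against 1.22 to 1.52 CPM in the other dKO libraries. Myh8 was low in WT 4, at 1.79 CPM against 2.90 to 3.03 CPM. Tnni2 was high in dKO 1, at 7384 CPM against 5987 to 6381 CPM, and Acta1 in UCP1 KO 2, at 22846 CPM against 19533 to 20307 CPM.

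The summed level of the 41 genes stood out in 6 libraries. In BAT it was 14899 CPM in UCP1 KO 2 against 408 to 1571 CPM in the other UCP1 KO libraries. The dKO group of BAT, with 3 high and 2 low libraries, gave no single library that stands out. In iWAT it was 15840 CPM in WT 5 (others 459 to 1888 CPM), 6972 CPM in FGF21 KO 5 (519 to 607 CPM), 31118 CPM in UCP1 KO 1 (437 to 1082 CPM) and 1643 CPM in dKO 1 (474 to 640 CPM). In liver it was 176 CPM in FGF21 KO 1 against 147 to 151 CPM in the other FGF21 KO libraries.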

How the results depend on the processing

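No paired analysis was possible because the labels link no libraries across genotypes. Omission of the libraries that stand apart, unscaled totals and all alternatives for dKO against FGF21 KO and the interaction were chosen after seeing the data; the cause of each change was not tested except where a setting uses fewer libraries.

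In muscle, where edgeR called 0 genes in each comparison, DESeq2 called 1 in FGF21 KO against WT (1.27% of all genes), 1 in UCP1 KO against dKO (0.132%) and 2 over all 4 genotypes (2.4%). A threshold of 0.05 gave 1, 0 and 1, for which the share of all genes is not given here.

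The share of all genes called in the same fit stands in brackets. In BAT, UCP1 KO against WT (10 calls, 25.2%) gave 34 with DESeq2 (30.3%), 5 without the low-count filter (16%), 35 at 0.05 (40.7%), 34 with unscaled totals (36.2%), 2 without the 4 libraries that stand apart (25%) and 0 with only both genotypes in the fit (16.5%). dKO against WT (31, 21.1%) gave 0 (17.4%) and the test over all 4 genotypes (33, 29.7%) gave 2 (28.5%) without the 4 libraries. dKO against FGF21 KO (9, 13.5%) gave 36 with DESeq2 (19.5%), 38 at 0.05 (28%) and 0 without the 4 libraries (12.1%). With 1 library left out, 19.6 to 29.8% of all genes were called in UCP1 KO against WT, 14.96 to 23.8% in dKO against WT, 8.77 to 16.6% in dKO against FGF21 KO and 25.02 to 34.1% over all 4 genotypes. Leaving out 1 library gave 0 to 32 calls in UCP1 KO against WT (0 without any WT library or UCP1 KO 2; 32, 29, 27 and 16 without UCP1 KO 1, UCP1 KO 5, dKO 2 and dKO 5; 2 or 3 without UCP1 KO 3, dKO 1, 3 or 4 or FGF21 KO 1 to 4). It gave 2 to 39 in dKO against WT (2 without any WT library; 3, 5 and 6 without dKO 1, 3 and 4; 19 and 20 without FGF21 KO 2 and 3), 0 to 38 in dKO against FGF21 KO (0 or 1 without any FGF21 KO library, 2 to 4 without any WT library or dKO 1, 3 or 4, 38 without UCP1 KO 2) and 10 to 39 over all 4 genotypes (10 to 15 without any WT library, 12 to 17 without FGF21 KO 1 to 4, 17 to 20 without dKO 1, 3 or 4).

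Over all 4 genotypes in iWAT (0, 1.74%), DESeq2 (7.27%), a threshold of 0.05 (share not given here) and leaving out WT 5 gave 1, and leaving out any other library gave 0. With 1 library left out 0.581 to 4.55% of all iWAT genes were called, and 1.17 to 1.48% where it was a WT library. In liver, where at most 1.34% of all genes were called under any of these settings, UCP1 KO against WT (1) gave 20 with DESeq2 (0.777%), 3 without the filter (0.0699%), 18 at 0.05 (0.618%) and 0 with only both genotypes in the fit (0.0208%). FGF21 KO against WT (17) gave 0 with only both genotypes in the fit (0.0139%). dKO against WT (0) gave 22 with DESeq2 (0.639%), 1 without the filter (0.0466%), 16 at 0.05 (0.375%) and 1 with unscaled totals (0.0694%). The interaction (0) gave 5 with DESeq2 (0.0625%) and 1 at 0.05 (0.00694%), and all 4 genotypes (17) gave 26 with DESeq2 (1.34%). With 1 library left out, at most 0.472% of all genes were called. Leaving out 1 library gave 0 to 25 calls in FGF21 KO against WT (25 without WT 5; 2 without WT 1, 2, 3 or 4 or FGF21 KO 2, 1 without FGF21 KO 5 and 0 without FGF21 KO 3 or 4), 0 to 20 in UCP1 KO against WT (20 without WT 5; 0 without WT 1, 3 or 4 or UCP1 KO 2 to 5; 2 and 4 without dKO 2 and 4), 0 to 20 in dKO against WT (20 without WT 5), 0 to 2 in the interaction (2 without WT 5) and 2 to 25 over all 4 genotypes (2 to 5 without WT 1 to 4, 10 without FGF21 KO 3 or 4).

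The muscle-equivalent share of BAT WT (0.188%) was 0.0846% as a median of gene ratios, 0.287% without the 5 most abundant genes and 0.150% with TMM over 80 libraries, and that of BAT dKO (2.30%) was 0.266% without the libraries that stand apart. In liver, the median of ratios gave 0.0814% in WT, 0.0208% in FGF21 KO, 0.0249% in UCP1 KO and 0.0266% in dKO, the sum without the 5 most abundant genes 0.164, 0.111, 0.121 and 0.129%, and TMM over 80 libraries 0.0799, 0.0922 and 0.0941% in the 3 knockouts. WT stayed the highest liver group in each. In iWAT, TMM over 80 libraries gave 3.81, 1.70 and 7.74% in WT 5, FGF21 KO 5 and UCP1 KO 1 (7.40, 3.26 and 14.5%), and in the other 17 libraries (0.204 to 0.882%) the median of gene ratios gave 0.0318 to 0.790%. Without UCP1 KO 2 the BAT UCP1 KO mean was 0.399%, and without WT 1 the Myh7 share of WT muscle was 0.0360%. Without the 4 libraries the log2 changes in BAT dKO against WT were 1.11 for Actn2, 2.32 for Myh2 and 1.43 for Tnnc1. Genes at a few CPM, such as Myh3, rest on few reads (at least 29 in muscle), which limits what can be shown for them.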
